A study of Mus musculus with 8 samples.

Results

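The genes described here encode the receptors of fibroblast growth factors (FGFs) and the genes that respond to FGF signalling in a feedback loop. They were taken by name from the transcript table: the receptor genes Fgfr1, Fgfr2 and Fgfr3, the decoy receptor gene Fgfrl1, the Sprouty genes Spry1, Spry2 and Spry4, the phosphatase gene Dusp6, and the ETS transcription factor genes Etv4 and Etv5. These are 10 of the 20701 gene symbols in the table, and all 10 had enough counts to be tested. Polyadenylated RNA of single C57BL/6 mouse embryos at E10.5 was sequenced, each library from 1 dissected piece of outflow tract with right ventricle (OFT/RV). The labels give 4 control embryos (CTRL) as wild type and 4 embryos (Isl1_hypo) as hypomorphic for Isl1, the LIM-homeodomain transcription factor of the second heart field (SHF). In the study's description the hypomorphs carried the f;neo allele in both copies of Isl1. The allele is in the germ line, so it is not confined to cells of the SHF. Isl1 was measured here in OFT/RV only.

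FGFs bind receptor tyrosine kinases at the cell surface, and the activated receptors signal through RAS and the kinase ERK. ERK activity raises the transcription of its own inhibitors and of ETS factors, so the mRNA levels of Spry, Dusp6 and Etv4/5 genes are widely used as readouts of FGF signalling. In the embryo, FGF signalling keeps SHF progenitor cells dividing and guides the growth and septation of the OFT.

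The libraries held 29748458 to 46678973 counts in CTRL and 18422245 to 33050298 in Isl1_hypo, with 1 transcript kept per gene. Isl1 stood at 29.6 to 61.5 CPM (counts relative to library size, scaled by the TMM method) in CTRL and at 6.86 to 12.7 CPM in Isl1_hypo, so the targeted gene was lower in every library labelled Isl1_hypo. Cardiomyocyte markers were abundant in every library, with a summed level of 22400 to 26500 CPM in CTRL and 22300 to 25200 CPM in Isl1_hypo over 8 genes. Markers of blood differed, with 8 of 8 higher in Isl1_hypo and sums of 2010 to 11900 CPM in CTRL against 11800 to 25600 CPM. The 5 epicardial markers were all higher too, with sums of 48.3 to 303 CPM against 366 to 586 CPM. Of 6 tested epithelial markers, 6 were higher, and the defining gene Cdh1 reached 282 counts in replicate 1 of Isl1_hypo, where no further library had over 9. Endothelial markers were lower in 5 of 6 cases, with sums of 644 to 751 CPM in CTRL and 492 to 631 CPM in Isl1_hypo that did not overlap. Mesenchymal markers were lower in 7 of 8 cases (1800 to 2680 CPM against 1060 to 3100 CPM), as were all 5 tested macrophage markers (8.73 to 20 CPM against 1.9 to 15 CPM). Of 6 SHF markers, with Isl1 and Fgf10 among them, 5 were lower, and their sums were 366 to 419 CPM in CTRL and 270 to 321 CPM in Isl1_hypo. No list had a marker at 0 in all libraries. The part of these markers in the results on FGF genes was not tested, apart from a fit with the globin level as a covariate. Isl1_hypo replicate 3 stood apart from the other libraries in its relation to GC content. Its slope of log2 CPM was −0.295 for each 10 percentage points of transcript GC content, against −0.0375 to 0.112 in the other 7. In transcript length CTRL replicate 1 stood apart, with a slope of 0.117 for each doubling, against −0.0975 to 0.031 in the other 7. Its epicardial sum was 48.3 CPM, against 175 to 303 CPM in the other CTRL libraries.

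Among the 10 genes, the decoy receptor gene Fgfrl1 fell to 53.6% of its control level in Isl1_hypo, and no other had an adjusted p under 0.05. Etv4 was lower and Spry1 and Spry2 were higher at an unadjusted p under 0.05 only. The receptors Fgfr1, Fgfr2 and Fgfr3, and the readouts Dusp6, Spry4 and Etv5, did not pass at either level with all libraries. Thus 1 of 10 passed at an adjusted p under 0.05 over all genes, where 0.269% of the 13769 genes tested did (edgeR quasi-likelihood test, Benjamini-Hochberg). At an unadjusted p under 0.05 there were 4 of 10, against 11.9% of all genes. Of these 4, 2 were lower (6.17% of all genes) and 2 higher (5.69% of all genes). Without CTRL replicate 1 the count of 4 became 1. In 1 gene of the 10 the values of the 2 groups did not overlap, with Isl1_hypo lower, against 8.5% of all genes without overlap and 4.44% with Isl1_hypo lower. Of the 10 genes, 6 had a log2 fold change under 0, against 49.1% of all genes, and the median was −0.07 over the 10 and 0.01 over all genes.

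**Figure D1:**
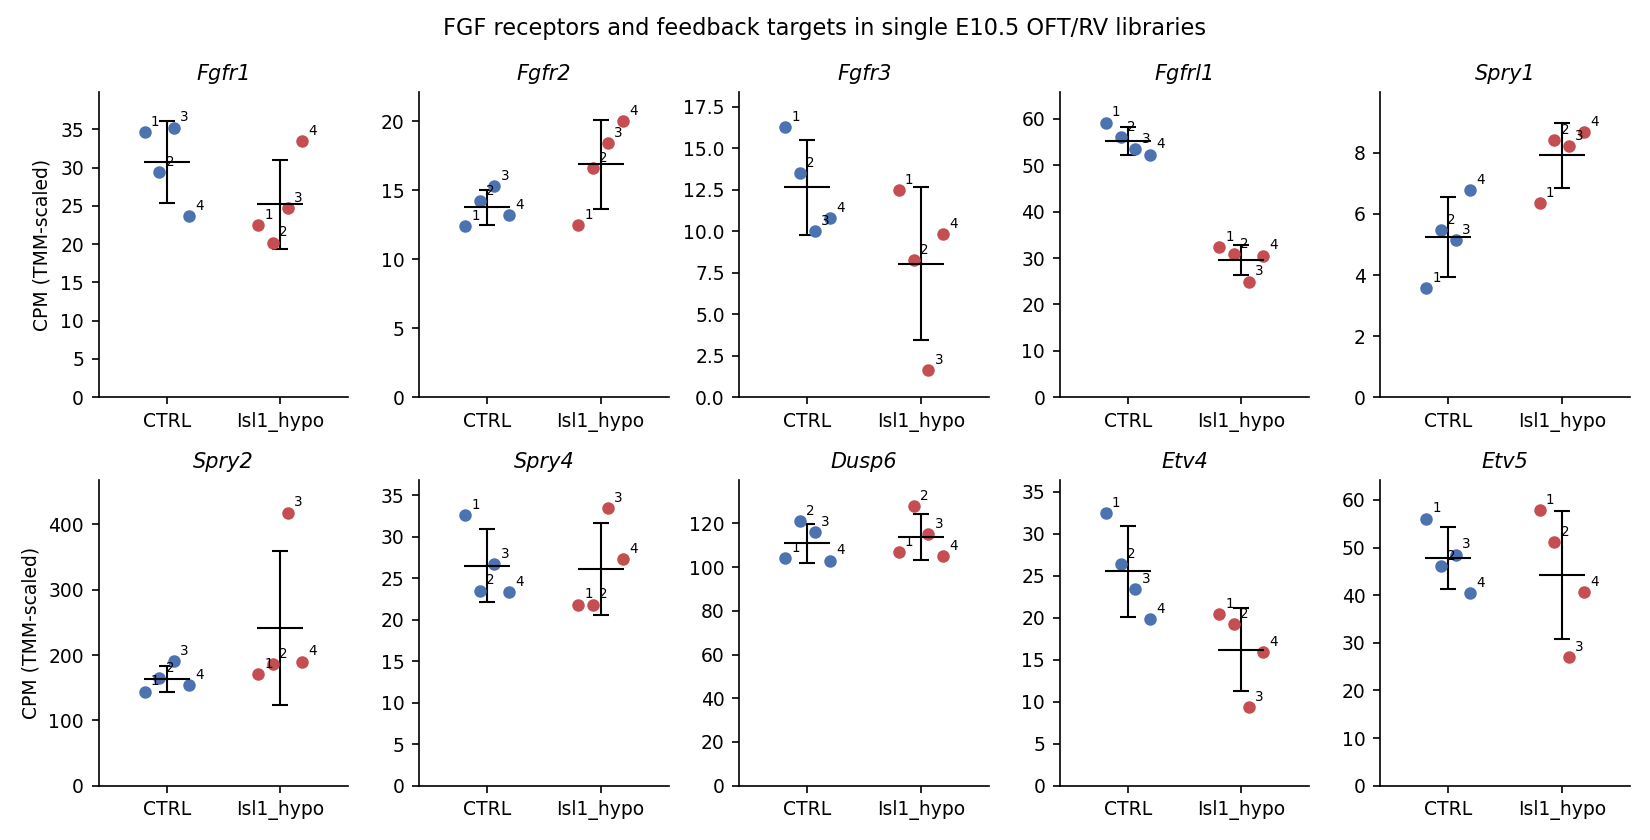
TMM-scaled CPM of each gene (y axis, from 0) in the 4 CTRL (blue) and 4 Isl1_hypo (red) libraries. The points carry the replicate number, the bar is the mean and the whiskers are 1 SD. Fgfrl1 is the one gene in which the groups separate, at 52.3 to 59.2 CPM in CTRL and 24.9 to 32.3 CPM in Isl1_hypo, and Isl1_hypo replicate 3 lies apart in Fgfr3 and Spry2.

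In control tissue 2 of the inhibitors, Spry2 and Dusp6, were the most abundant of the 10 genes, while the 3 signalling receptors were in the lower part of the order. Per kilobase of transcript (RPKM on the TMM-scaled library sizes, mean ± SD, n = 4 CTRL embryos), Spry2 was highest at 78.6 ± 9.69, followed by Dusp6 at 39.8 ± 3.18 and Fgfrl1 at 20.9 ± 1.16. The ranges of these 3 genes did not overlap in CTRL. Etv5 (12.6 ± 1.7) and Etv4 (11 ± 2.32) came next with overlapping ranges. Within single CTRL libraries Etv4 was the lower, at 0.793 to 0.952 of Etv5. Fgfr1 (6.14 ± 1.07) and Spry4 (5.78 ± 0.942) overlapped as well. Fgfr3 (3.0 ± 0.68), Fgfr2 (2.66 ± 0.238) and Spry1 (2.38 ± 0.596) were lowest, and each overlapped with the next. In Isl1_hypo, Spry2 (116 ± 56.7) and Dusp6 (40.7 ± 3.62) kept the first places, while Fgfrl1 (11.2 ± 1.23) came after Etv5 (11.6 ± 3.54) with overlapping ranges.

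Fgfr1 encodes the main FGF receptor of mesodermal cells. In replicate order, the CTRL embryos had 34.6, 29.4, 35.2 and 23.7 CPM, and the Isl1_hypo embryos 22.5, 20.2, 24.7 and 33.5 CPM. The groups overlapped through Isl1_hypo replicate 4, which lay in the upper CTRL range, and through CTRL replicate 4, which was low. This gave a log2 fold change, Isl1_hypo over CTRL, of −0.28 (standard error, SE, 0.185; 95% interval −0.69 to 0.12; adjusted p 0.566, edgeR). Without Isl1_hypo replicate 4 it was −0.45 (unadjusted p 0.0269, adjusted p 0.389, edgeR), the largest fall among the fits that left out 1 library. The smallest was −0.19, without Isl1_hypo replicate 2 (unadjusted p 0.34, edgeR).

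Fgfr2, whose splice forms divide ligand binding between epithelium and mesenchyme, had 12.4, 14.2, 15.3 and 13.2 CPM in CTRL and 12.5, 16.6, 18.4 and 20 CPM in Isl1_hypo. In Isl1_hypo, 3 of 4 embryos lay above every CTRL embryo, and replicate 1 lay at the bottom of the CTRL range. Its log2 fold change was 0.29 (SE 0.172, interval −0.08 to 0.67, adjusted p 0.529, edgeR). Among the fits that left out 1 library, it was highest at 0.41 without Isl1_hypo replicate 1 (unadjusted p 0.0272, adjusted p 0.313, edgeR). It was lowest at 0.20 without Isl1_hypo replicate 4 (unadjusted p 0.297, edgeR). The 3 listed Fgfr2 transcripts shared nearly all of their reads, so the splice forms could not be told apart in these counts. Their log2 ratios were 0.24 to 0.25 in counts per library size without TMM scaling.

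Fgfr3, a receptor best known from growing cartilage, had 16.3, 13.5, 10 and 10.8 CPM in CTRL and 12.5, 8.24, 1.64 and 9.82 CPM in Isl1_hypo. The value of Isl1_hypo replicate 3 rests on 52 counts, the lowest count of any of the 10 genes in any library, while the other 3 Isl1_hypo embryos reached into or close to the CTRL range. For Fgfr3 the log2 fold change was −0.66 (SE 0.445, interval −1.64 to 0.31, adjusted p 0.577, edgeR), and −0.32 without that library. Fgfr4, the remaining receptor gene of the family, was near the limit of detection with 6 to 35 counts a library.

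Fgfrl1 encodes a protein with the extracellular FGF-binding part of a receptor but no tyrosine kinase, and is therefore called a decoy receptor. The gene lies on the plus strand of chromosome 5 (mm9, chr5:109123248-109135969). The 4 CTRL embryos had 59.2, 56.1, 53.5 and 52.3 CPM, against 32.3, 30.8, 24.9 and 30.5 CPM for the 4 Isl1_hypo embryos. Every Isl1_hypo embryo was below every CTRL embryo, and the highest Isl1_hypo value was 61.7% of the lowest CTRL value. Mean levels were 55.3 ± 3.07 CPM in CTRL and 29.6 ± 3.25 CPM in Isl1_hypo (SD, n = 4). This fall corresponds to a log2 fold change of −0.90 (SE 0.123, interval −1.17 to −0.63, adjusted p 0.0172, edgeR quasi-likelihood test), and 3.02% of all genes tested had a log2 fold change at least as low. Both listed transcripts fell alike, with log2 ratios of −0.94 and −0.92 in counts per library size without TMM scaling. In dissected tissue, fewer Fgfrl1-expressing cells and less Fgfrl1 mRNA per cell cannot be told apart.

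The size of the fall was stable while its adjusted p lay close to the threshold. Leaving out single libraries gave log2 fold changes of −0.95 to −0.83. The adjusted p was 0.0631 without CTRL replicate 1, 0.0727 without replicate 2 and 0.0733 without replicate 3, and 0.0535 and 0.0597 without Isl1_hypo replicates 2 and 4 (edgeR). Without Isl1_hypo replicate 3, the library that stood apart in GC content, it was 0.00959 (edgeR). With the GC trend of each library removed the log2 fold change was −0.77 (adjusted p 0.0204, edgeR). In the fit with globin as a covariate, Fgfrl1 stood at −0.74, with an unadjusted p of 0.00213 and an adjusted p of 0.9998 (edgeR). The globin level was higher in Isl1_hypo, so that its part and that of the genotype cannot be told apart in full. With a replicate block the adjusted p was 0.0763 (edgeR).

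The 250 bases before the annotated start of Fgfrl1 (RefSeq, GRCm38.p6, plus strand, chr5:108693979-108694228) are shown because it is the one gene of the 10 that passed the test, beside those of Dusp6 (plus strand, chr10:99262981-99263230), the readout with the narrowest interval around no change. Capitals mark GGAAG, the core bound by ETS factors such as Etv4 and Etv5, or its complement CTTCC on the other strand.
Fgfrl1: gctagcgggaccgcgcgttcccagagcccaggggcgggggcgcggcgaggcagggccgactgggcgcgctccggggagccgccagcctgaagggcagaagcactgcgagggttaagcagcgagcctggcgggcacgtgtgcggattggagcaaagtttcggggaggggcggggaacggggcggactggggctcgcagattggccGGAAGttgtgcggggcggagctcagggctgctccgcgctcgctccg
Dusp6: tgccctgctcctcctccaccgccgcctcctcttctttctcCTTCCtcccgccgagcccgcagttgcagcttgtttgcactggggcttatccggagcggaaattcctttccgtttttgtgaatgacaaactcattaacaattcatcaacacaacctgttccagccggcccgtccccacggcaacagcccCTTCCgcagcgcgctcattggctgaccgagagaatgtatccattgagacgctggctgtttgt

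The Fgfrl1 window held 1 GGAAG and the Dusp6 window 2. This core is common, being present on either strand in 64.1% of 32851 windows of the same length. The longer match CCGGAAG, which contains the core, was found in 6.91% of the windows. Among the 7 of the 10 genes with a searched window, it was present in that of Fgfrl1, where it begins 48 bases before the start and takes in the capitals with the preceding cc. Windows on chromosome 18, which carries Spry4, were left out of the search. The letters CTAATG, a homeodomain match of the Isl1 type, occur in 6.36% of windows on either strand and in none of the 9 windows of these genes. These are letter matches in a short stretch and not measured binding sites.

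The make-up of the receptor transcripts was compared within each library, since such shares do not depend on the scaling of the library. These ratios were chosen after the values of the genes were seen. Of the summed level per length of the 4 receptor genes, Fgfrl1 held 62.9%, 64.2%, 62.1% and 66.7% in CTRL and 55.2%, 55.9%, 51.4% and 47.2% in Isl1_hypo. The groups did not overlap, with means of 64 ± 2.04% and 52.4 ± 4.02% (SD, n = 4, exact permutation p = 0.0286). The share of Fgfr2 was 8.19 ± 0.998% in CTRL and 15.4 ± 3.47% in Isl1_hypo (exact permutation p = 0.0286). The level of Fgfr2 itself was 122% of CTRL, as given with its test above, and Fgfrl1 takes up much of the sum on which the shares are based. The share of Fgfr1 was 18.7 ± 2.39% in CTRL and 23.5 ± 4.27% in Isl1_hypo (exact permutation p = 0.143), and that of Fgfr3 was 9.12 ± 1.54% and 8.61 ± 4.7%, with overlapping groups in both genes. Fgfrl1 per Fgfr1 was 3.47 ± 0.555 and 2.31 ± 0.58 (exact permutation p = 0.0571). Fgfrl1 per sum of the 3 signalling receptors was 1.78 ± 0.162 in CTRL and 1.11 ± 0.173 in Isl1_hypo (exact permutation p = 0.0286). The sum of the 3 signalling receptors itself was 11.8 ± 1.42 RPKM in CTRL and 10.2 ± 1.84 RPKM in Isl1_hypo (exact permutation p = 0.229). With 4 embryos a group, 0.0286 is the smallest 2-sided p this test can give, and after adjustment over the 19 values compared in this way it was 0.109 at best, so none of them passes.

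**Figure D2:**
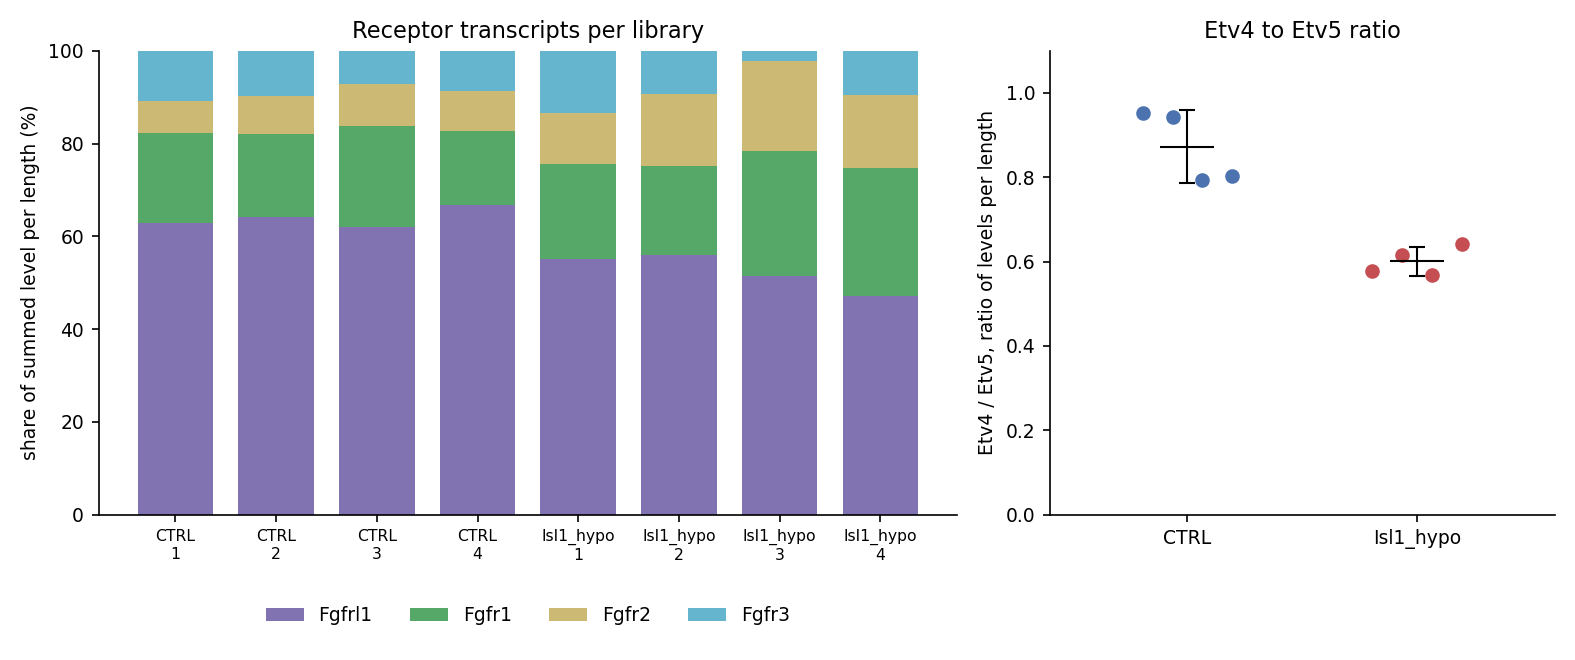
Left, share of each receptor gene in the summed level per length (y axis, %) in every library, with Fgfrl1 at the bottom: it holds 62.1 to 66.7% in CTRL and 47.2 to 55.9% in Isl1_hypo. Right, Etv4 per Etv5 as a ratio of levels per length in each library (points), with the mean and 1 SD: CTRL lies at 0.793 to 0.952 and Isl1_hypo at 0.568 to 0.641.

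Sprouty proteins are induced by FGF signalling and block it between the receptor and ERK. Spry2 (mm9, chr14:106291166-106296036, minus strand), the most abundant of the 10 genes per length, had 144, 165, 191 and 154 CPM in CTRL and 171, 186, 418 and 190 CPM in Isl1_hypo. Replicate 3 was far above the other Isl1_hypo embryos, whose values overlapped with CTRL. With all libraries the log2 fold change was 0.56 (SE 0.254, interval 0.00 to 1.12, unadjusted p 0.0487, adjusted p 0.417, edgeR), and 0.16 without Isl1_hypo replicate 3 (adjusted p 0.66).

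Spry1 (mm9, chr3:37538869-37543520, plus strand) was the least abundant in CTRL, with 3.58, 5.46, 5.14 and 6.78 CPM in CTRL and 6.35, 8.43, 8.22 and 8.68 CPM in Isl1_hypo. CTRL replicate 4 and Isl1_hypo replicate 1 overlapped, and the other 3 Isl1_hypo embryos lay above all CTRL embryos. Spry1 thus had a log2 fold change of 0.60 (SE 0.238, interval 0.07 to 1.12, unadjusted p 0.0289, adjusted p 0.35, edgeR). Without CTRL replicate 1, the lowest library, it was 0.45.

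Spry4 overlapped widely between the groups, with 32.6, 23.5, 26.7 and 23.3 CPM in CTRL and 21.8, 21.8, 33.4 and 27.3 CPM in Isl1_hypo. Its log2 fold change was −0.02 (SE 0.175, interval −0.41 to 0.36, adjusted p 0.97, edgeR). Its sign depended on the libraries used, being 0.09 without CTRL replicate 1. Spry3, the remaining gene of the family, had 0 counts in all 8 libraries.

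Dusp6 (mm9, chr10:98725865-98730122, plus strand) encodes a cytoplasmic phosphatase that removes the activating phosphates from ERK, and its mRNA is among the most direct readouts of ERK activity. It had 104, 121, 116 and 103 CPM in CTRL and 107, 128, 115 and 105 CPM in Isl1_hypo, so the ranges of the groups nearly coincided. Its log2 fold change was 0.03 (SE 0.103, adjusted p 0.924, edgeR). The interval from −0.19 to 0.26 was the narrowest of the 10 genes, and Dusp6 also had the smallest spread within Isl1_hypo, with an SD of 0.125 on the log2 scale. The sign was not stable at this size, with −0.03 without Isl1_hypo replicate 2.

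Etv4 and Etv5 encode ETS factors of the PEA3 group, which carry FGF signals to target genes. Etv4 (mm9, chr11:101631056-101646685, minus strand) had 32.5, 26.4, 23.4 and 19.8 CPM in CTRL and 20.4, 19.2, 9.32 and 15.9 CPM in Isl1_hypo. Only CTRL replicate 4 and Isl1_hypo replicate 1 overlapped. The mean was 25.5 ± 5.39 CPM in CTRL and 16.2 ± 4.95 CPM in Isl1_hypo (SD, n = 4), 63.4% of CTRL. Etv4 had a log2 fold change of −0.66 (SE 0.239, interval −1.18 to −0.13, unadjusted p 0.0181, adjusted p 0.309, edgeR). The log2 fold change was −0.47 without Isl1_hypo replicate 3, and −0.53 without CTRL replicate 1, where the unadjusted p was 0.0635 (edgeR). In the fit with globin as a covariate it was −0.09. The same fit gave −0.03 for Fgfr1, 0.26 for Fgfr2, −0.05 for Fgfr3, 0.24 for Spry1, 0.18 for Spry2, −0.01 for Spry4, 0.13 for Dusp6 and 0.28 for Etv5.

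Etv5 (mm9, chr16:22381382-22439792, minus strand) had 56.1, 46.1, 48.5 and 40.5 CPM in CTRL and 57.8, 51.2, 27.0 and 40.7 CPM in Isl1_hypo. Apart from replicate 3, the Isl1_hypo embryos lay in or just above the CTRL range. The log2 fold change was −0.12 (SE 0.209, interval −0.57 to 0.34, adjusted p 0.861, edgeR), and 0.06 without Isl1_hypo replicate 3. Both ETS genes were low in replicate 3. Etv4 per Etv5, per length, was 0.952, 0.942, 0.793 and 0.802 in CTRL and 0.578, 0.616, 0.568 and 0.641 in Isl1_hypo. The groups did not overlap, with means of 0.872 ± 0.0864 and 0.601 ± 0.0338 (SD, n = 4, exact permutation p = 0.0286, 0.109 after adjustment over the 19 values). Like the receptor ratios, this ratio was chosen after the values of the genes were seen.

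**Figure D3:**
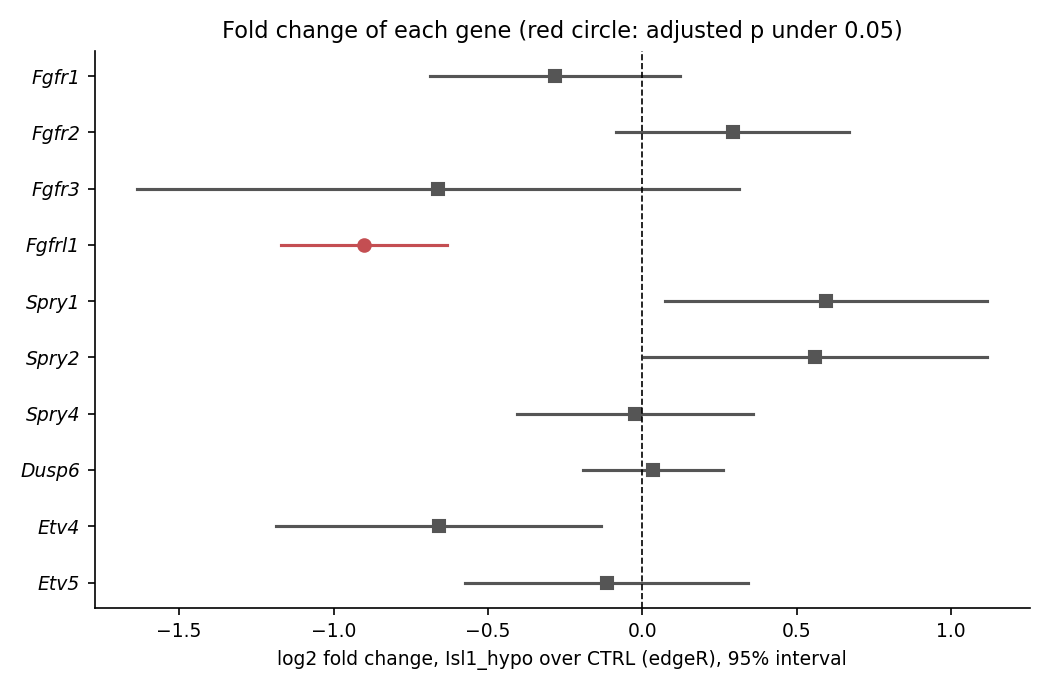
Log2 fold change of each gene (x axis, Isl1_hypo over CTRL) with its 95% interval from the edgeR fit. The interval of Fgfrl1 (red) runs from −1.17 to −0.63, that of Dusp6 from −0.19 to 0.26, and the widest, that of Fgfr3, from −1.64 to 0.31.

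The values of Isl1_hypo replicate 3 were set against GC content, because this library departed from the other 3 Isl1_hypo libraries for several of the genes. Fgfr3 (GC 56.3%) was lower there by a log2 difference of −2.57, while the 1310 genes within 1 percentage point of its GC content had a median of −0.21, and 3.59% of them were lower still. Spry2 (46.2%) was higher by 1.20, against a median of 0.10 for 1258 genes of like GC content, of which 97.9% were below it. Etv4 (58.7%) stood at −0.97 and Etv5 (51.8%) at −0.87, against medians of −0.37 and −0.06. Fgfrl1, the gene richest in GC at 59.6%, differed by −0.33, close to the median of −0.35 for its like. Dusp6 (49.0%) differed by 0.02 and Fgfr1 (55.3%) by −0.01. The part of GC content in the differences of single genes was not tested beyond the fit with the trend removed, in which the log2 fold changes were −0.62 for Fgfr3, 0.48 for Spry2 and −0.57 for Etv4.

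**Figure D4:**
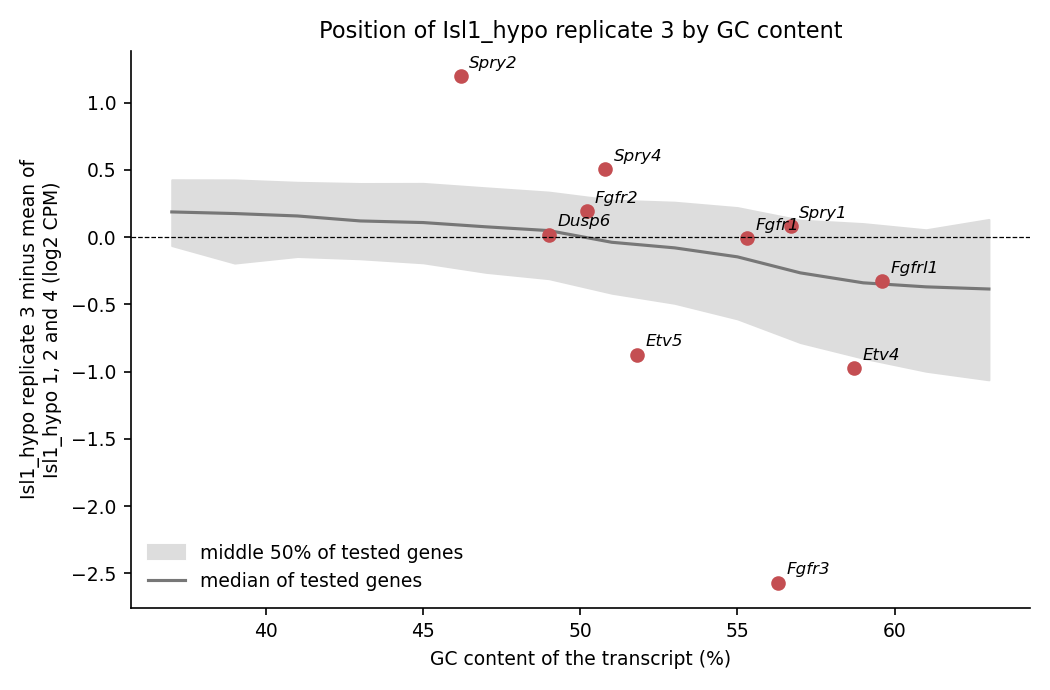
Difference of Isl1_hypo replicate 3 from the mean of the other 3 Isl1_hypo libraries (y axis, log2 CPM) against transcript GC content (x axis, %). The line is the median and the band the middle 50% of all tested genes in bins of GC content. Fgfr3 at −2.57 and Spry2 at 1.20 lie well outside the band, and Fgfrl1 at −0.33 lies on the median.

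Some of the genes varied together among embryos of the same genotype, and others did not. After subtraction of the group means, the Pearson correlation of log2 CPM over the 8 libraries was above 0.8 in 6 of the 45 pairs and below −0.8 in 4, and it was within 0.3 of 0 in 15. Without Isl1_hypo replicate 3, and with the group means taken anew, these counts were 4, 3 and 13, and 5 pairs had the opposite sign. Fgfrl1 and Etv4 gave 0.981 over 8 libraries and 0.953 without that library, and Etv4 and Etv5 gave 0.965 and 0.888. For Spry2 and Fgfr3 the values were −0.976 and −0.73, and for Spry2 and Spry4 0.622 and −0.137. Dusp6 with Etv4 gave 0.0371 and 0.145, and Fgfr1 with Etv4 0.0568 and 0.0892. The points share their libraries and hence depth and base composition, and these correlations are a description. Over 10744 genes with a mean of at least 5 CPM, the patterns most like that of Dusp6 were those of Cpt2 (0.974), Cyp46a1 (0.955) and Rab33a (0.955), and those most like Fgfr1 were Speg (0.972) and Tubg1 (0.954). These are the highest of 10744 correlations over only 8 libraries. How high unrelated genes would reach in such a search was not tested.

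The wider pathway was described with 107 further genes, of which 89 were tested. Of these, 3 had an adjusted p under 0.05, where 0.269% of all genes did (edgeR). At an unadjusted p under 0.05 there were 17 (19.1%, against 11.9% of all genes). Of the 17, 11 were lower (6.17% of all genes) and 6 higher (5.69% of all genes). Of the 19 tested further receptors and co-receptors, 12 had a log2 fold change under 0, against 49.1% of all genes. An unadjusted p under 0.05 was reached by 6 (31.6%, against 11.9% of all genes, edgeR). Of these 6, 4 were lower (6.17% of all genes) and 2 higher (5.69% of all genes). The co-receptor gene Sdc4, a heparan sulfate proteoglycan, had 36.9, 43.2, 40.4 and 58.4 CPM in CTRL and 99.7, 103, 121 and 68.6 CPM in Isl1_hypo, and rose by 1.13 on the log2 scale (SE 0.187, adjusted p 0.0358, edgeR). Every Isl1_hypo embryo was above every CTRL embryo, and the adjusted p was 0.0279 to 0.129 when single libraries were left out, with the call lost without CTRL replicate 1, 2 or 3 or Isl1_hypo replicate 1 or 2. In the fit with globin as a covariate Sdc4 was at 0.72, with an unadjusted p of 0.0195 and an adjusted p of 0.9998 (edgeR). The other 2 were ligands: Fgf10, an FGF of the SHF, fell by 0.93 on the log2 scale and Fgf9 rose by 1.35 (adjusted p 0.031 and 0.0425, edgeR). Both calls were lost in the fits that left out 1 library, except those without Isl1_hypo replicate 3, and the adjusted p then ran from 0.00701 to 0.105 for Fgf10 and from 0.0417 to 0.136 for Fgf9 (edgeR). With the GC trend removed, Fgf9 had an adjusted p of 0.0769 and Fgf10 of 0.0126 (edgeR). Fgf8, the other FGF ligand typical of the SHF, had 10, 82, 75 and 27 counts in CTRL and 2, 12, 0 and 17 counts in Isl1_hypo (adjusted p 0.44, edgeR).

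Of the 28 tested genes of the cascade, which encode adaptors, RAS proteins and their regulators, RAF, MEK, ERK and the RSK kinases that ERK activates, none had an adjusted p under 0.05 in the edgeR test, and 0 had an unadjusted p under 0.05, against 11.9% of all genes. Their median log2 fold change was −0.02. The smallest p-values were those of the RSK gene Rps6ka1 (log2 fold change −0.35, interval −0.73 to 0.04), the RAS family gene Rras (−0.31, interval −0.66 to 0.04) and Nras (0.19, interval −0.06 to 0.44). The count of 0 did not hold without Isl1_hypo replicate 4, where Rps6ka1 was at −0.53 (unadjusted p 0.00611, edgeR) and Rras at −0.40 (unadjusted p 0.0361, edgeR), and limma-voom gave Rps6ka1 an unadjusted p of 0.0352. Nras was at 0.09 without Isl1_hypo replicate 3. Of 15 tested further feedback inhibitors, 0 passed at an adjusted p under 0.05 and 2 at an unadjusted p under 0.05 (edgeR), both higher. This is 13.3% of the list, close to the 11.9% of all genes. These were the phosphatase genes Dusp14 (0.74, SE 0.286) and Dusp10 (0.37, SE 0.151), followed by Dusp4 at −0.59 (SE 0.273). Without Isl1_hypo replicate 3, Dusp14 was at 0.44 (unadjusted p 0.0984, edgeR) and Dusp4 at −0.34 (unadjusted p 0.0433, edgeR). Dusp14 also had an unadjusted p over 0.05 without CTRL replicate 1, 3 or 4 or Isl1_hypo replicate 2 (edgeR). For Dusp10 this held without CTRL replicate 1, 2 or 4 or Isl1_hypo replicate 1 or 2, with 0.09 at most (edgeR).

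Of 19 tested further ERK and FGF response genes, 0 passed at an adjusted p under 0.05, and 6 were lower (31.6%, against 6.17% of all genes) and 1 was higher (5.26%, against 5.69%) at an unadjusted p under 0.05 (edgeR). Shisa2, whose product restrains FGF receptor maturation, had 17.5 to 20.4 CPM in CTRL and 9.13 to 16.5 CPM in Isl1_hypo (log2 fold change −0.74, adjusted p 0.195, edgeR). The immediate early gene Junb had 17.8 to 22.4 CPM against 6.39 to 14.5 CPM (−0.83, adjusted p 0.206, edgeR), and Myc had 27.3 to 33.8 against 36.4 to 44.2 CPM (0.35, adjusted p 0.312, edgeR). With globin as a covariate the values were −0.75 for Shisa2, −0.42 for Junb and 0.53 for Myc. The groups did not overlap in these 3 genes and in 5 of the 19 in all (26.3%, against 8.5% of all genes). The median of this list was −0.19, and that of the 19 tested further receptors and co-receptors −0.07.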

How the data were processed

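The authors aligned reads from single embryos with STAR to mm9 and used HOMER to count exon reads of RefSeq transcripts on both strands. Counts were deposited without normalization, and transcripts of a gene share most reads, as do overlapping genes. The authors also deposited RPKM values (edgeR), which were not tested, and their DESeq2 comparison (mean signal, log2 fold change with its standard error, a score and p-values), which was not used. The transcript with the highest mean count was kept per symbol. The main test was edgeR's quasi-likelihood test (4.0.16, R 4.3.3) on genes passing filterByExpr, with TMM scaling, no covariates and Benjamini-Hochberg adjustment over all genes. The SE is the log2 fold change divided by the square root of F, and a prior count of 2 was added for log2 CPM. Single values used an exact 2-sided permutation test over 70 splits. The test was checked on simulated counts. Coordinates are from the GENCODE annotation of mm9 and promoter sequences from RefSeq (GRCm38.p6). GC content was found for 91.4% of tested genes. The genes, lists and alternatives were chosen with earlier results of these data known. All 10 genes are named. Of each other list, genes with an adjusted p under 0.05 are named, or else the 3 with the smallest p among genes of at least 5 CPM, besides Fgfr4, Spry3, Fgf8 and Fgf10. A withheld gene is not reported here. Alternatives were other scaling (RLE, upper quartile), DESeq2 1.42.0, limma-voom (limma 3.58.1), other filters, the longest transcript, a replicate block, removal of globin genes and leaving out each library. The GC trend, the globin covariate and leaving out Isl1_hypo replicates 1 and 3 together were added after seeing the data. That the embryos are separate samples is given by the labels, and litters are not, so the p-values measure the spread between these embryos.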

Additional observations from a re-analysis of the deposited data

Results flagged for a closer look

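Spry2 stood at 8.707 log2 CPM in Isl1_hypo replicate 3 and between 7.417 and 7.568 in the other 3 Isl1_hypo libraries, a gap to its nearest neighbour of 0.883 of the whole range of the group. The ratio of Spry2 to Dusp6, per length, was 4.891 in the same library and 1.956 to 2.414 in the others. Of 40 groups of 4 values examined in this way, 2 held such a library, the number that chance gives at 1 in 20. Both rest on the same Spry2 count. Without this library the log2 fold change of Spry2 was 0.16 in place of 0.56.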

How the results depend on the processing

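Over 20 alternatives the log2 fold change of Fgfrl1 ranged from −0.95 to −0.74 and that of Isl1 from −2.46 to −2.14, without a change of sign. Same-numbered embryos did not vary together (correlation of their deviations −0.02 to 0.02), though this cannot show whether they shared a litter. With the replicate block the adjusted p was 0.0763 for Fgfrl1 and 0.0722 for Isl1 (log2 fold change −2.29, edgeR). That fit called 0 genes in all (edgeR, 1582 at an unadjusted p under 0.05) and 0 of the 10. Fgfr3 was then at −0.90 (unadjusted p 0.0428, adjusted p 0.415, edgeR). DESeq2 called 319 genes and limma-voom 134, against 37 in edgeR, with Fgfrl1 under 0.05 in both. With the globin level as a covariate, 0 genes were called (491 at an unadjusted p under 0.05), 0 of the 10 at an adjusted and 1 at an unadjusted p under 0.05. Their median was then 0.0623 in place of −0.07, Isl1 was −2.30 (adjusted p 0.537), Etv5 0.28 and Nras −0.009005. Etv5 was 0.0465 with limma-voom. Junb (adjusted p 0.0405) and Shisa2 (0.0373) passed with DESeq2, and Shisa2 (0.0415) without Isl1_hypo replicates 1 and 3, where Sdc4 (0.126) and Fgf9 (0.111) no longer did. Leaving out 1 library gave 4 genes (without CTRL replicate 3) to 48 (without Isl1_hypo replicate 3) called, 0 to 1 of the 10 at an adjusted p and 1 to 5 at an unadjusted p under 0.05. It also turned Dusp6 (−0.031 to 0.0767), Spry4 (−0.165 to 0.0851) and Etv5 (−0.272 to 0.0611), none of them called in any fit. The cause of these changes was not tested.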
